A study of Mus musculus with 5 samples.

Results

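SOX9 binding in the developing limb is described here from 1 list of binding sites. It was made by ChIP-seq, the sequencing of DNA precipitated with an antibody to a chromatin protein, from limb buds of wild-type C57BL/6 mouse embryos at embryonic day 12.5. Every distinct line of the limb list was taken as 1 peak. This gave 9089 limb peaks, out of 25911 entries in the 3 peak lists of the series. The limb sample stands alone, with no replicate list, so the spread between embryos or between experiments is unknown and every interval below covers counting error only. The only control list is unprecipitated chromatin (input) from whole hearts of wild-type C57BL/6 embryos at embryonic day 10.5, another tissue at an earlier stage, with 14219 regions. A rabbit polyclonal antibody to SOX9 was used for the limb sample, and the normal IgG controls that the protocol names were not analysed here. The labels call the cells limb mesenchyme, a bulk tissue, and this name could not be set against marker genes because the limb file used here holds only peak positions and heights. Neither the number of embryos per sample nor the read depth is given in the sources used here.

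SOX9 is a transcription factor with an HMG-box DNA-binding domain, and it is the master regulator of cartilage formation. In the limb bud it is switched on in mesenchymal cells that condense into the models of the future bones, and it then drives the cartilage matrix programme, including type II collagen and aggrecan. In chondrocytes SOX9 is known to act through many enhancers far from the genes they serve, often several per gene, and it can bind DNA as a dimer. Groups of closely spaced binding sites are therefore a feature of interest. The chaining distance of 12.5 kb used below is the one commonly used to join enhancers into larger units called super-enhancers. Genes near the peaks were not assigned, since the peaks are on mouse build mm9 and the gene tables used here are on another build.

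The limb peaks were short and covered little sequence. Their width ran from 199 to 999 bp, with a median of 297 bp and quartiles of 262 and 353 bp, and together they covered 2922 kb. Peak height, a whole number given by the authors whose unit is not stated, ran from 28, the minimum of the list, to 292. The median height was 38 and the quartiles were 32 and 52, so most peaks stood close to the minimum. The minimum itself was shared by 584 peaks (6.43%), and 454 peaks (5.00%) were higher than 100. Taller peaks were narrower. The median width was 311 bp among the 2572 peaks of height 28 to 32 and 269 bp among the 454 peaks above 100, and Spearman's rho of height and width over all 9089 peaks was -0.16 (a description across peaks of 1 library).

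Peaks were spread over all 19 autosomes at similar density and were scarce on the X chromosome. The autosomes held 8982 peaks, 3.76 per Mb of the span between the first and the last peak of each chromosome. Chromosome 11 had the highest density, 4.59 peaks per Mb (exact Poisson 95% interval 4.21 to 4.99, 543 peaks). Chromosomes 17 and 19 followed with 4.44 and 4.41 per Mb, and their intervals (4.02 to 4.89 and 3.89 to 4.99) overlap that of chromosome 11. Chromosome 12 had the lowest autosomal density, 3.17 per Mb (2.86 to 3.51, 372 peaks), and chromosome 1, the longest, stood at 3.30 per Mb (3.05 to 3.57, 633 peaks). The highest autosomal density was 1.45 times the lowest, and these 2 intervals do not overlap. Peaks lie in groups, so counts vary more than a Poisson interval allows and no test between chromosomes was run.

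The X chromosome held 107 peaks, 0.69 per Mb (0.56 to 0.83), so that autosomal density was 5.49 times that of X. The input list was also sparser on X, by 3.04 times (5.73 regions per Mb on autosomes and 1.89 on X, over the span of any of the deposited lists). The part of this background in the low number of X peaks was not tested. The X peaks that passed the list's minimum were of usual height, with a median of 38, against medians of 36 to 40 on the autosomes. Of the 107 X peaks, 3 (2.80%) were above 100, and this share ran from 3.32% on chromosome 1 to 8.27% on chromosome 7 among the autosomes. The limb list had 0 peaks on the Y chromosome, where the input list had 88 regions.

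**Figure D1:**
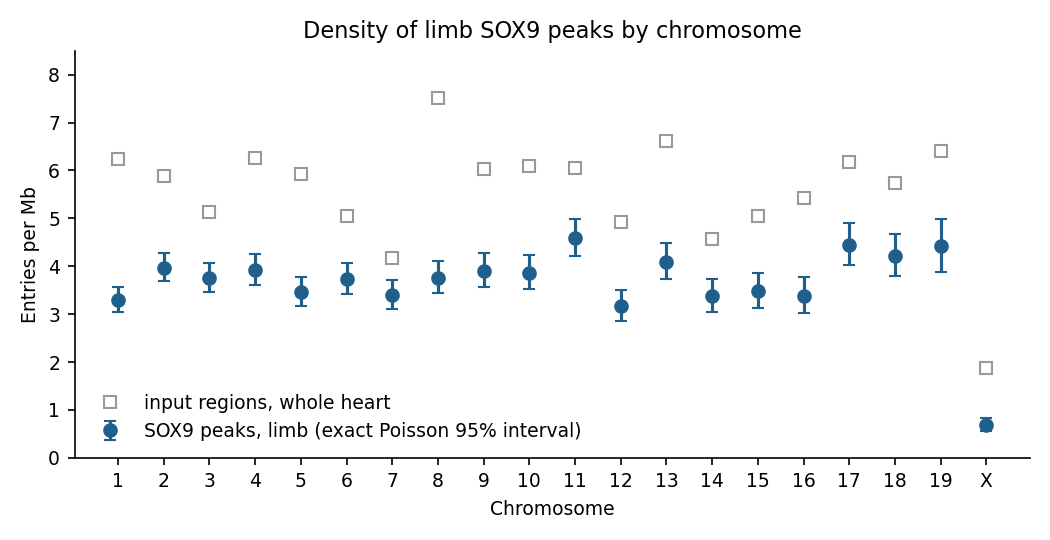
Limb SOX9 peaks per Mb on each chromosome (filled circles, with exact Poisson 95% intervals) and input regions of whole heart per Mb (open squares); the horizontal axis lists the chromosomes. Autosomal peak densities sit between 3.17 and 4.59 per Mb, and X stands at 0.69 per Mb.

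Along a chromosome, limb peaks were typically separated by about 113 kb, but distances covered a very wide range. Over 9069 pairs of neighbours, the distance from the end of a peak to the start of the next had a median of 113 kb (binomial 95% interval 109 to 117 kb), and the quartiles were 42.0 and 285 kb. The shortest distance was 2 bp, and no peaks overlapped. On the autosomes the median ran from 88.2 kb on chromosome 7 to 144 kb on chromosome 16, and on X it was 399 kb. Distances over 1 Mb occurred 481 times (5.30% of pairs), 40 of them among the 106 pairs on X.

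The longest stretches without a limb peak were mostly on X. They were chrX:22200444-34064416 (11.9 Mb), chrX:110299585-121324885 (11.0 Mb) and chrX:121325250-131458258 (10.1 Mb), followed by chr1:25599997-33514069 (7.91 Mb) and chr7:39056572-46704655 (7.65 Mb). The second and the third of these flank a single X peak, and they lie end to end but for that peak. Input regions occurred in all 5 stretches. Their number was 27, 106, 40, 19 and 24 in the order given. On X this is 2.28, 9.61 and 3.95 per Mb, against 1.89 for the whole chromosome. In the stretches of chr1 and chr7 it is 2.40 and 3.14 per Mb, against 5.73 over the autosomes. Some reads of the input library thus mapped in each stretch, and how much of each can be mapped was not tested.

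To see how far this spacing departs from an even scatter, each peak was moved along the peak span of its own chromosome by its own random offset, wrapping at the end (a circular shift), 10000 times. The number and widths of peaks on each chromosome are kept, and their spacing is not. Moved peaks can land in sequence where no read maps uniquely, and on each other. The observed median distance of 113 kb lay below that of every shift, which ran from 176 to 192 kb with a mean of 185 kb.

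Neighbours were more frequent than in the shifts in every bin from 10 bp to 100 kb, and the ratio was higher below 1 kb than above it. Between 100 and 250 bp, 61 pairs stood against a mean of 5.12 in the shifts, a ratio of 11.9. The ratio was 3.39 between 250 and 500 bp and 2.23 between 500 and 1000 bp. It then stayed nearly level, at 1.62 between 1 and 2.5 kb, 1.51 between 2.5 and 5 kb, 1.55 between 5 and 12.5 kb, 1.69 between 12.5 and 25 kb and 1.60 between 25 and 50 kb, and fell to 1.26 between 50 and 100 kb. Distances between 100 kb and 1 Mb were rarer than in the shifts (ratios of 0.63 to 0.85), while those above 1 Mb were more frequent (1.82). At 10 bp or less the list had 6 pairs and the shifts 11.3, but the shifts count overlapping peaks there. The list therefore has 2 features, a set of peaks less than 1000 bp apart and a moderate excess of neighbours that reaches to about 100 kb.

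**Figure D2:**
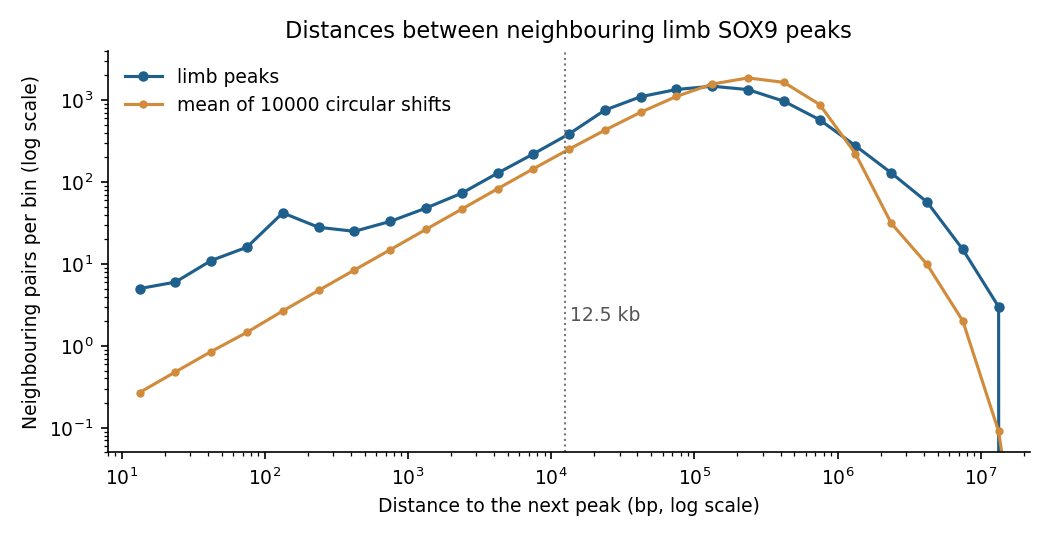
Number of neighbouring limb peak pairs (vertical axis, log scale) by distance to the next peak (horizontal axis, bp, log scale, 4 bins per factor of 10, from 10 bp) in the list and as the mean of 10000 circular shifts. The list lies above the shifts below 100 kb, with a separate rise at 100 to 250 bp, lies below them from 100 kb to 1 Mb, and is above them again beyond 1 Mb.

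The wider component was also visible as dense and empty stretches of 1 Mb. Of 2555 windows of 1 Mb laid from the first peak of each chromosome, 524 (20.5%) held no peak, against a mean of 5.62% and at most 6.81% in the shifts (two-sided permutation p = 0.0001, the smallest value that 10000 shifts allow). The variance of peaks per window was 3.11 times the mean, against 1.19 times on average in the shifts. On X, 98 of 157 windows were empty, and on the autosomes 426 of 2398. In the dense direction, 147 windows (5.75%) held 10 or more peaks, and 1751 peaks (19.3%) lay in them. The fullest window, chr13:31708160-32708159, held 23 peaks with a median height of 47, none of them over an input region, and the fullest window of any shift held 20. It was followed by chr18:13382879-14382878 with 19 peaks (4 over input regions) and chr3:140796805-141796804 with 18 peaks (1 over an input region).

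Dense windows held slightly more tall peaks. The share of peaks above 100 was 2.72% (Wilson 95% interval 1.48 to 4.93) where a peak was alone in its window and 6.68% (5.60 to 7.95) in windows with 10 or more, and these intervals do not overlap. They count peaks of the same window as independent, and no test was run. Median height moved little, from 37 to 39. The share of peaks over input regions moved in the same way, from 5.98% (3.98 to 8.89) to 10.6% (9.26 to 12.2), and its part in the difference was not tested.

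Peaks were chained into a group when the distance between them was at most 12.5 kb, and a group of 3 or more peaks was called a cluster. By this rule 245 of 9089 limb peaks, or 2.70% (Wilson 95% interval 2.38 to 3.05), lay in 76 clusters. A further 1190 peaks (13.1%) formed 595 pairs, and 7654 peaks (84.2%) were alone. Among the clusters, 65 held 3 peaks, 9 held 4, 1 held 6 and 1 held 8. The threshold falls in a smooth part of the distribution, with 53 distances between 11.5 and 12.5 kb and 49 between 12.5 and 13.5 kb.

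Clusters were rarer in the shifts. These gave 19.5 clusters on average and at most 35, so the list had 3.91 times as many. They placed 59.4 peaks (0.65%) in clusters on average, at most 110, and the observed 245 was 4.13 times that mean (two-sided permutation p = 0.0001, again the smallest value the shifts allow). The ratio rose with cluster size, which chaining itself brings about once short distances are in excess. Distances up to 12.5 kb were already 1.79 times as frequent as in these shifts along the chromosome, and larger groups chain more of them. For groups of 2 or more the list had 1.65 times the mean number of groups (671 and 407), and for groups of 4 or more 11.7 times (11 and 0.94). The 2 largest groups, of 6 and 8 peaks, compare with at most 1 group of 6 or more in any shift. This test describes the arrangement of 1 list and carries no replicate error.

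Part of the excess followed the density of peaks in the wider region. When each peak was shifted only within its own 5 Mb window, so that the broad density was kept, the shifts gave 30.4 clusters on average and the ratio of clustered peaks fell to 2.62. Within 1 Mb windows they placed 150 peaks in clusters on average (84 to 239), a ratio of 1.63 (two-sided permutation p = 0.0001, the smallest possible). They gave 48.4 clusters (27 to 77), and the ratio of clusters was 1.57 (two-sided permutation p = 0.0002). In these 1 Mb shifts the ratio of neighbouring pairs was 7.94 between 100 and 250 bp and 1.47 between 500 and 1000 bp, but 1.07, 1.01 and 1.05 in the 3 bins from 1 to 12.5 kb. It was 1.18 and 1.19 in the 2 bins from 12.5 to 50 kb. In an alternative chosen after seeing the data, peaks less than 500 bp apart were first merged and shifts were kept within 1 Mb windows. The list then had 180 clustered peaks against 140.6, and this ratio of 1.28 no longer passed the threshold (two-sided permutation p = 0.055). The 56 clusters against 45.3 gave a ratio of 1.24 (two-sided permutation p = 0.11). With peaks over input regions removed as well, the ratio of clustered peaks was 1.50 (two-sided permutation p = 0.0027). The call of an excess of clusters beyond the density of the surrounding 1 Mb thus depended on how peaks less than 500 bp apart were counted and on the peaks over input.

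**Figure D3:**
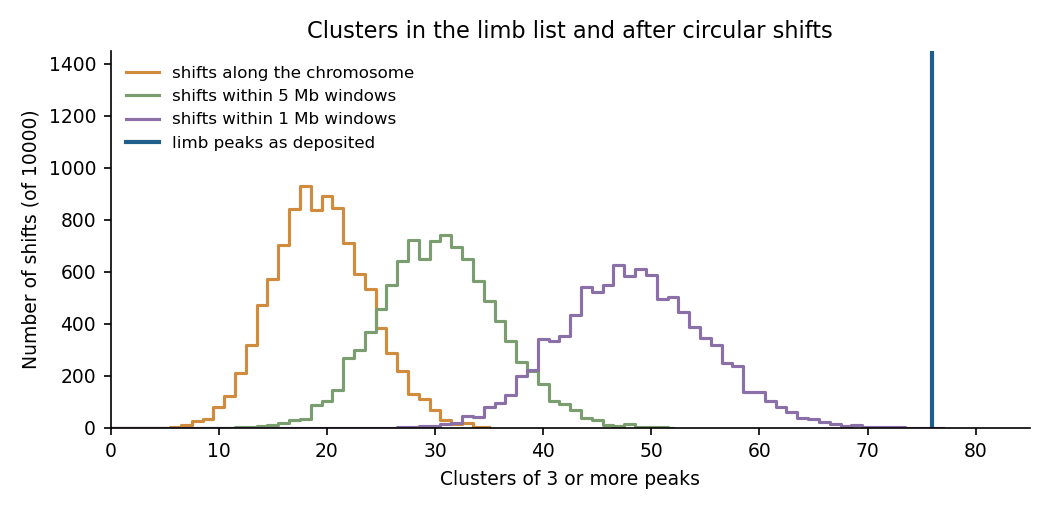
Number of clusters of 3 or more limb peaks (horizontal axis) in 10000 circular shifts (vertical axis, number of shifts) along the chromosome, within 5 Mb windows and within 1 Mb windows. The 76 clusters of the list (vertical line) lie above the means of 19.5, 30.4 and 48.4, and the largest value of the 1 Mb shifts is 77.

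Clusters were compact and mostly sequence between peaks. Their length from the first to the last base ran from 1.11 to 46.3 kb, with a median of 11.6 kb and quartiles of 8.68 and 15.5 kb, and peaks made up 8.24% of their 927.5 kb. In 25 clusters at least 1 distance was under 500 bp, and in 7 all were, so that these 7 are runs of adjoining peaks more than spaced sites. Clusters occurred on all 20 chromosomes that had peaks, from 1 each on chromosomes 8, 15 and 16 to 7 on chromosome 6. The share of peaks in clusters was highest on X, with 7 of its 107 peaks (6.54%) in 2 clusters, and was 5.15% on chromosome 14 and 0.62% on chromosome 8. These shares rest on few clusters per chromosome and have no intervals here, and 1 of the 2 X clusters is only 2.01 kb long. The distance from a cluster to the next peak outside it had a median of 83.3 kb.

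Clusters lay mainly where peaks were dense. In windows of 10 or more peaks 7.71% (6.55 to 9.05) of peaks were in a cluster, in windows of 4 to 6 peaks 0.96% (0.67 to 1.38). The rule for clusters itself favours dense windows, so this is a description.

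Clustered peaks overlapped input regions at a rate whose interval includes that of lone peaks. Of the 245 clustered peaks, 17 overlapped an input region by at least 1 bp, 6.94% (4.38 to 10.8), against 8.22% (7.62 to 8.85) of peaks that were alone. In 67 of the 76 clusters no peak overlapped an input region, and in 2 clusters all did. Over the whole list only 750 of 9089 peaks (8.25%) overlapped an input region, so a lack of overlap is the usual state of a small group. Whether the count of 67 differs from random grouping was not tested. The input list, chained by the same rule, gave 344 clusters with 15.1% of its 14219 regions, but these regions have a median width of 6703 bp and cover 118 Mb, so that share cannot be set against that of the much shorter peaks.

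The cluster with the most peaks was chr14:77057990-77104303 (mm9), 46.3 kb long with 8 peaks. Its peaks had heights of 33, 39, 37, 30, 32, 30, 29 and 35 in order along the chromosome, all close to the list's minimum of 28. The third and the fourth overlapped an input region. The 3 distances that follow the first 3 peaks were 6.24, 7.71 and 8.64 kb, and 1 pair lay 0.32 kb apart. The next peak before the cluster was 13.6 kb away, not far beyond the chaining limit.

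The second, chr6:30586172-30625330, was 39.2 kb long and held 6 peaks of height 42, 60, 45, 45, 47 and 43, none over an input region. Its heights were all above the median of the list. Both of its flanking peaks lay nearby, at 26.3 and 19.1 kb, so a chaining distance of 25 kb would extend it.

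Among the clusters of 4, chr13:32128817-32140606 stood out by height. Its 4 peaks of 110, 80, 94 and 85 lay within 11.8 kb, inside the fullest 1 Mb window of the list, and none overlapped an input region. In chr3:89215690-89239166 the heights were 84, 33, 59 and 44 over 23.5 kb, a mixed group in which the first peak was the tallest. The cluster chr3:102998100-103012244 (14.1 kb) had a similar form, a first peak of 76 followed by 34, 30 and 41, and it stood far from other peaks, at 419 and 526 kb.

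In chr2:106255759-106271923 (16.2 kb) the first peak had a height of 77 and no overlap with the input, while the other 3 (37, 39 and 34) all lay over input regions. Without the peaks over input only 1 peak of this cluster is left. The X cluster chrX:80831211-80848306 (17.1 kb) had 4 peaks of 39, 33, 30 and 43, none over an input region, and its nearest other peaks were 6076 and 1169 kb away. It is thus an isolated group on a chromosome with few peaks.

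The other clusters of 4 were low. Heights were 40, 37, 39 and 33 in chr18:47457813-47478708 (20.9 kb) and 30, 38, 28 and 29 in chr6:125095008-125114932 (19.9 kb). They were 32, 34, 28 and 36 in chr6:53669685-53683880 (14.2 kb), where the first 2 peaks were 0.13 kb apart. In chr4:32325563-32339139 (13.6 kb) they were 33, 28, 30 and 34. No peak of these 4 clusters overlapped an input region, and all 16 heights were at most 40. The group on chr4 ended 13.0 kb before a cluster of 3, chr4:32352116-32353956, just beyond the chaining limit of 12.5 kb.

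The tallest peak of any cluster was in chr7:122759185-122781590. Only 11 clusters had 4 or more peaks, and this one was placed next among the 65 clusters of 3 because of that height. It was a group of 3 peaks over 22.4 kb with heights of 133, 150 and 53 and no overlap with the input. Its second distance, 12.4 kb, was just inside the chaining limit. Without the third peak it would be a pair.

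**Figure D4:**
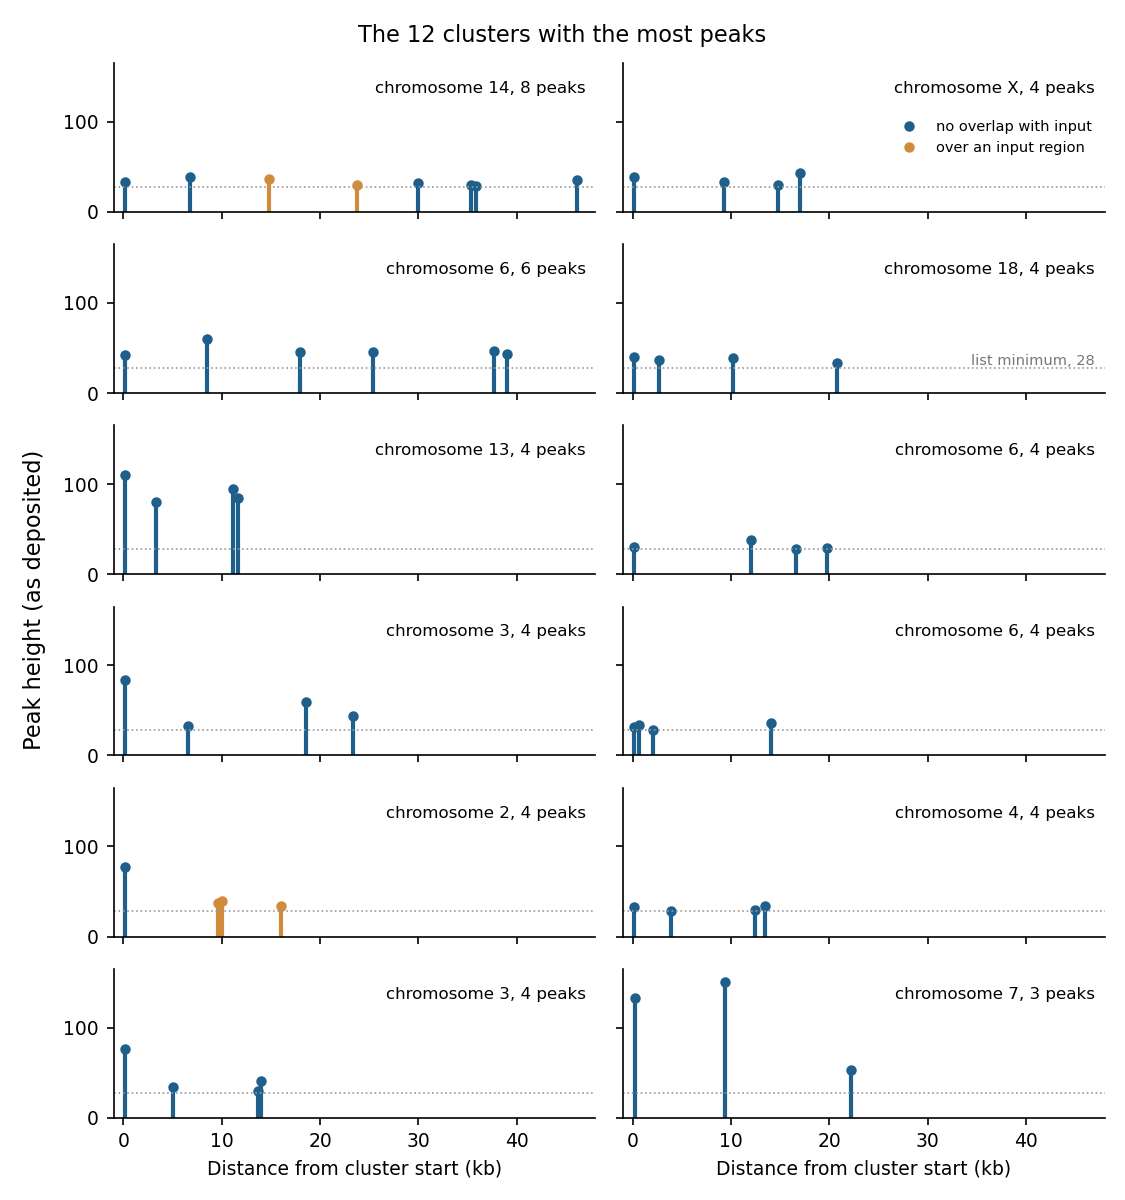
Height of each peak (vertical axis, as deposited) by distance of its midpoint from the start of the cluster (horizontal axis, kb) in the 12 clusters with the most peaks (the group of 3 on chromosome 7 was placed by its height among 65 of that size), with peaks over an input region in orange and the list's minimum of 28 as a dotted line. The group of 8 on chromosome 14 stays between 29 and 39, while the groups on chromosomes 13 and 7 reach 110 and 150.

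Clusters were not places of especially high peaks. The median height was 37 (binomial 95% interval 36 to 38) in clusters, 38 (37 to 39) in pairs and 38 (38 to 39) among peaks that were alone, and the intervals meet. The upper ends differed more. The 95th percentile was 83.6 in clusters, 86.6 in pairs and 102 among lone peaks, and peaks above 100 made up 2.86% (1.39 to 5.78), 3.03% (2.19 to 4.16) and 5.37% (4.89 to 5.90). The interval of pairs does not overlap that of lone peaks, while that of clusters does. These intervals count each peak as independent. Close neighbours had similar heights (below), so the intervals of pairs and clusters are too narrow. Of the clusters, 28 had every peak under 40, 14 had every peak at 40 or more and 3 had every peak at 60 or more. Over the whole list 4219 of 9089 peaks had a height of at least 40. Whether the cluster counts differ from random grouping was not tested. In the 65 clusters of 3, the tallest peak was the first in 19, the middle one in 23 and the last in 20, with a tie in 3.

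Most of the 10 tallest peaks, with heights of 215 to 292, stood alone, as did most peaks of the list. Of the 10, 8 had no other peak within 12.5 kb and 2 were in pairs, against 84.2% lone peaks in the whole list. Their median distance to the nearest peak was 38.8 kb, and that of all peaks 54.3 kb. The tallest was chr10:52106817-52107134 (318 bp, height 292), with its nearest neighbour 29.9 kb away. It was followed by chr17:8565584-8565828 (height 271, neighbour at 129 kb), chr13:54795177-54795678 (269, 26.8 kb), chr8:89873710-89873938 (252, 190.1 kb) and chr7:148414377-148414621 (238, 6.32 kb). The last of these was the sole one of the 10 over an input region. The other 5 were chr5:115224561-115224858 and chr10:80755850-80756120, both of height 234, chr5:123818959-123819182 (218), chr18:34918692-34919131 (216) and chr2:118345883-118346140 (215).

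Over the whole list, peaks above 100 were least frequent close to another peak. They made up 1.53% (Wilson 95% interval 0.60 to 3.87) of the 261 peaks with a neighbour within 0.5 kb and 1.04% (0.44 to 2.41) of the 482 peaks with the nearest at 0.5 to 5 kb. The share was 4.91% (3.54 to 6.79) at 5 to 12.5 kb, 6.38% (5.54 to 7.34) at 12.5 to 50 kb, 5.06% (4.38 to 5.84) at 50 to 200 kb and 3.21% (1.75 to 5.80) beyond 500 kb. The interval at 0.5 to 5 kb lies below those of the next 3 classes. The closest classes hold many peaks together with their own neighbours, which these intervals count as independent. Peaks with a neighbour within 0.5 kb overlapped input regions more often, at 12.3% (8.82 to 16.8), than those at 0.5 to 5 kb, at 6.64% (4.74 to 9.22), although these intervals overlap. No pair up to 2.5 kb apart differed in height by 2 times or more (below). The parts of the input and of the way the list was made in the share of tall peaks were not tested.

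Neighbouring peaks had similar heights over short distances, and the similarity faded from about 2.5 kb to 20 kb. Spearman's rho of the heights of neighbours was 0.59 over 134 pairs up to 0.5 kb apart, 0.66 over 120 pairs at 0.5 to 2.5 kb, 0.45 over 127 pairs at 2.5 to 5 kb and 0.50 over 123 pairs at 5 to 7.5 kb. It was 0.36 over 137 pairs at 7.5 to 10 kb, 0.31 over 123 pairs at 10 to 12.5 kb, 0.19 over 133 pairs at 12.5 to 15 kb and 0.05 over 259 pairs at 15 to 20 kb. For 1458 pairs at 20 to 50 kb it was 0.06. These are descriptions across pairs that share 1 library and in part share peaks, and no p is given. Without pairs in which a peak lay over an input region, rho was 0.57 up to 0.5 kb and 0.59 at 0.5 to 2.5 kb. The part of the way the list was made in this similarity was not tested.

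Large differences in height were absent among the closest neighbours and became more frequent with distance. None of the 254 pairs up to 2.5 kb apart differed in height by 2 times or more (Wilson 95% upper limit 1.49%), and the largest ratio among them was 1.66. At 2.5 to 5 kb, 4 of 127 pairs did so (3.15%, interval 1.23 to 7.82), at 5 to 12.5 kb 48 of 383 (12.5%, 9.58 to 16.2), and beyond 12.5 kb 1690 of 8305 (20.3%, 19.5 to 21.2). The closest pair with a ratio of 2 or more lay 3.49 kb apart on chromosome 8, with heights of 34 and 68, and 310 pairs were closer than that. A peak above 100 was in 1.97% of the pairs up to 2.5 kb apart and in 10.1% of those beyond 12.5 kb. The part of this difference in the ratios was not tested. Whether the lack of large ratios among close pairs follows from the way the list was made was also not tested. The sources used here name neither the peak caller nor its settings.

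**Figure D5:**
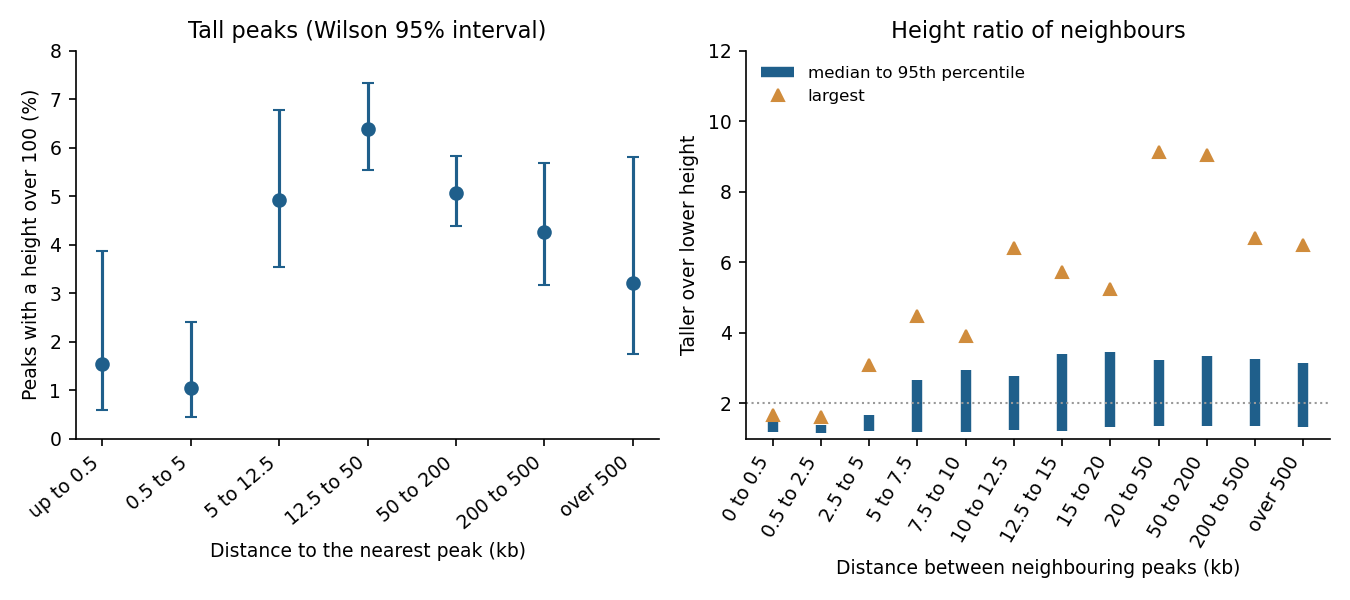
Left, share of limb peaks with a height over 100 (vertical axis, %, Wilson 95% intervals) by distance to the nearest peak (horizontal axis, kb); right, ratio of the taller to the lower height of neighbouring peaks (bars from the median to the 95th percentile, triangles for the largest) by the distance between them (kb). The share is 1.04% at 0.5 to 5 kb and 6.38% at 12.5 to 50 kb, and the largest ratio is 1.66 up to 0.5 kb and 9.13 at 20 to 50 kb.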

How the data were processed

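Per the submitters' processing notes, the limb reads were handled with BWA and the mouse build mm9, without a version. The deposited list holds the position and the height of each peak, a whole number treated as signal. The sources used here do not name the peak caller or say whether libraries were pooled. Of 9725 lines, 636 repeated an earlier one and were dropped. Starts were converted to count from 1.

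Clusters were tested with 10000 circular shifts, each peak by its own offset, because 1 offset for a whole chromosome keeps the distances. Overlap with input required 1 bp. Shares have Wilson and densities exact Poisson 95% intervals. Alternatives were other distances (5, 25 and 50 kb), cluster sizes, repeats kept, peaks over input removed, a minimum height of 40, merging below 500 bp, 5 and 1 Mb shift windows and other spans. The planned chromosome lengths and gene names needed a reference of mm9, not used here. Named regions were the 12 clusters with the most peaks (ties by the tallest peak), the 10 tallest peaks, the 5 longest distances and the cluster with the tallest peak; the 3 fullest windows were named after their values were seen. The peaks and rules were chosen with earlier results of these data known, and height classes and distance bins after seeing the values. The work was done in Python 3.11.15 (scipy 1.17.1, numpy 2.4.6, pandas 2.3.3, figures with matplotlib 3.10.9), and the steps were tested on simulated data. The expression table was not used.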

Additional observations from a re-analysis of the deposited data

How the results depend on the processing

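The ratio of clustered limb peaks to the mean of the shifts stayed above 1 and past the threshold in all settings run but 2. It was 1.28 with peaks under 500 bp apart merged and shifts within 1 Mb windows, and 0.98 with 1 offset per chromosome, which keeps distances and only sets the first peak of a chromosome beside the last. Most of the settings shifted peaks along the whole chromosome, which does not keep the density of the wider region. With shifts within 1 Mb windows the ratio was 1.63, and 1.50 with close peaks merged and peaks over input removed. The ratio of 6.97 with repeated lines kept, counted among the settings that passed, is no test of clustering. Copies of a line coincide in the list but were shifted apart, so an excess was fixed in advance. The number of clusters, 76, was 19, 231 and 560 with chaining up to 5, 25 and 50 kb, 671 and 2 for groups of at least 2 and 5 peaks, 148 with repeated lines kept and 14 for heights of at least 40. The share of peaks in clusters, 2.70%, was 0.63%, 8.48%, 22.7%, 15.8%, 0.15%, 5.19% and 1.09% in the same order, and 2.01% with close peaks merged. The median distance of 113 kb was 99.7 kb with repeated lines kept, 125 kb without peaks over input and 249.8 kb for heights of at least 40. The density of autosomes relative to X, 5.49, ran from 5.13 to 5.67 under the alternatives run for it. The median height of clusters less that of lone peaks was -1 or 0 in every setting. The overlap with input, 8.25%, was 8.13% under a stricter rule of overlap. Chromosome lengths of mm9 were not run. No paired analysis was possible because each group has 1 sample. With an unknown depth and a fixed minimum height, weaker sites are not counted, and a lower minimum could join lone peaks into clusters.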

Other observations

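The repeated lines of the limb list were not spread evenly over heights. Of the 608 peaks that occurred on more than 1 line, 587 occurred on 2 lines, 14 on 3 and 7 on 4. Among peaks above 100, 58 of 454 were repeated, 12.8% (Wilson 95% interval 10.0 to 16.2), while the share was between 6.14% and 6.48% in each of the 4 lower height classes, where the highest upper limit was 7.98%. Of the 10 tallest peaks, 4 were on more than 1 line, and chr5:115224561-115224858 was on 3. Clustered and lone peaks were repeated at 8.16% (5.35 to 12.3) and 6.79% (6.25 to 7.38), intervals that overlap. Counting lines in place of distinct peaks would therefore weight the tallest peaks more.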
